A study of Mus musculus with 15 samples.

Results

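The TGF-beta ligands, their receptors and the inhibitory Smad of the pathway were followed in mouse hearts that lacked MAT1 in cardiomyocytes. The probe sets taken were those that the platform annotation maps to exactly 1 of the symbols Tgfb1, Tgfb2, Tgfb3, Tgfbr1, Tgfbr2, Tgfbr3 and Smad7. This gave 8 of the 12422 probe sets on the array, covering all 7 genes of the 8251 with such a probe set, with a pair of probe sets for Tgfb3 and a single one for each other gene. At 4 weeks of age, knockout hearts had more Tgfb2 and Tgfb3 than control hearts, by 9.65-fold and 5.34-fold, and more Smad7, by 1.63-fold. Tgfb1 was 1.57-fold higher without passing the test, none of the 3 receptor genes passed it, and at 2 weeks of age no member did.

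TGF-beta ligands are secreted as latent complexes that are stored in the extracellular matrix and must be released before they can signal. The active ligand binds the type II receptor, which recruits and phosphorylates the type I receptor, and the type I receptor phosphorylates receptor-regulated Smads, which enter the nucleus with Smad4. In the heart the pathway is best known for driving fibroblasts to become matrix-producing myofibroblasts.

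MAT1 (gene Mnat1) helps the CDK7 kinase assemble with its cyclin and joins that kinase to transcription factor TFIIH. The knockout hearts (CKO) were from αMHC-Cre+/0; MAT1F/F mice, and the control hearts were from αMHC-Cre+/0; MAT1F/+ littermates, which keep 1 wild-type allele and carry the same Cre. The αMHC promoter drives Cre in cardiomyocytes, so other cells of these hearts keep the gene in both groups. Total cardiac RNA was hybridised to 15 one-colour arrays, 5 from CKO and 3 from control mice at 4 weeks of age, and 4 from CKO and 3 from control mice at 2 weeks. Whether each array stands for its own mouse is not stated, and p-values measure only the spread between arrays, which may be technical.

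The deposited intensities had array medians between 173.7 and 216.8. The arrays fell into 2 sets by their correlation over all probe sets (lowest r within a set 0.937, highest between sets 0.924), here called array set 1 (6 arrays) and array set 2 (9 arrays). No label names these sets, and each holds arrays of all 4 groups, so further values come from a fit with a term for the set (the blocked fit) and from each set alone. Array set 1 held 2 CKO arrays and 1 control array at each age, so its genotype differences rest on 1 control array. Neither of the Mnat1 probe sets checked the labels: at 4 weeks the log2 differences were 0.53 ± 0.47 (limma, adjusted p = 0.726) and −0.03 ± 0.27 (limma, adjusted p = 0.994). The first of them was called higher in CKO hearts at 4 weeks in the blocked fit, against the direction of the label (0.45 ± 0.15, limma, adjusted p = 0.0384). At 2 weeks neither was called. The first was then at 0.16 ± 0.49 and the second at −0.47 ± 0.28, in the direction of the label. In the blocked fit they were at −0.04 ± 0.16 and −0.55 ± 0.22. Where the probes lie relative to the deleted exons is not known here. Heart identity was plain, with Myh6, the cardiac myosin heavy chain, at 8799 ± 415 in CKO and 11553 ± 857 in control hearts at 4 weeks (SD, n = 5 and 3).

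The sequences before the start sites of Tgfb2, the ligand with the largest difference here, and of Tgfb1, the ligand with the smallest, are shown because the pair differ in their core promoter elements. The RefSeq promoter table (GRCm38.p6) held 4 of the 7 genes, namely Tgfb1, Tgfb2, Tgfbr1 and Tgfbr2. The 250 bases that precede the annotated start are given 5′ to 3′ on the strand of the gene. Capitals mark the motifs found.
Tgfb2, chr1:186705990-186706239, minus strand: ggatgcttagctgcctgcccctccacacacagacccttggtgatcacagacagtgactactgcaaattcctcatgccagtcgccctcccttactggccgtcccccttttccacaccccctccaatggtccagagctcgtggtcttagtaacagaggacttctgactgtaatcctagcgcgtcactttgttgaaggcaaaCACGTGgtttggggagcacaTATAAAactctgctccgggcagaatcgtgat
Tgfb1, chr7:25686752-25687001, plus strand: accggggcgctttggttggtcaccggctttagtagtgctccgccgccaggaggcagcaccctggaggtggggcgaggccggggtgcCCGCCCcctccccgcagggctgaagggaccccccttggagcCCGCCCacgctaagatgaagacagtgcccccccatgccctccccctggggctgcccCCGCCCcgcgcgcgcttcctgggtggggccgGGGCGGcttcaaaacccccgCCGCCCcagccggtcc
Both strands were searched for each motif named here. The Tgfb2 window holds a TATA box (TATAAA) whose first base lies 31 bases before the start, and an E-box (CACGTG) 51 bases before it. The Tgfb1 window holds neither, but has 5 GC boxes (GGGCGG on either strand), the nearest 16 bases before the start. Of 32851 windows of the same length, 12.4% hold the TATA box, 6.02% the E-box and 32.7% the GC box. No match to an AP-1 site (TGANTCA, 6.75% of windows), a cAMP response element (TGACGTCA, 1.55%) or a palindromic Smad binding element (GTCTAGAC, 0.167%) lay in the Tgfb1 or Tgfb2 window. Of the receptors, Tgfbr1 had 2 GC boxes before one of its starts and Tgfbr2 had no match to any of these motifs. A match is a string of letters and no evidence of binding. The pair was chosen for its contrast, no promoter of Tgfb3 was available, and a link between motifs and expression differences was not tested.

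At 4 weeks, the comparison of CKO with control hearts asks which members differ once the knockout heart is older. All differences below are on the log2(intensity + 16) scale, given as CKO minus control ± SE, and were tested with limma over all 12422 probe sets with Benjamini-Hochberg adjustment, with a call at an adjusted p under 0.05. Of the 8 member probe sets, 4 were called, all higher in CKO hearts. Over the whole array 6.27% of probe sets were called, 3.86% higher and 2.42% lower. For 5 of the 8, every CKO array lay above every control array, which held for 8.15% of all probe sets. In these whole-heart samples, fewer cells of a type and less RNA per cell cannot be told apart.

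Tgfb2, the ligand whose loss in mice disturbs heart valve and septum formation, had the largest difference of the members. Probe set 93300_at read 575.0, 666.6, 1348.6, 1060.4 and 1417.7 on the 5 CKO arrays, against 60.1, 97.2 and 101.2 on the 3 control arrays. The groups did not overlap, and the lowest CKO array stood more than 5 times above the highest control array. The log2 difference was 3.27 ± 0.32, a 9.65-fold rise (limma, adjusted p = 5e-05). In the blocked fit it was 3.32 ± 0.13 (limma, adjusted p = 2.46e-10). Within array set 1, which held 1 control array at this age, it was 3.06 ± 0.16, and within array set 2 it was 3.48 ± 0.17. By p, Tgfb2 stood 16th of the 12422 probe sets, and by the size of the increase 6th.

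Tgfb3, a close relative of Tgfb2 known in mice for its part in palate fusion, rose by both of its probe sets. The brighter, 102751_at, read 781.8, 598.6, 1696.9, 1230.6 and 1413.1 in CKO hearts, against 249.1, 147.9 and 177.0 in control hearts. Its log2 difference was 2.42 ± 0.29, or 5.34-fold (limma, adjusted p = 0.000232). The groups stood well apart, but the CKO arrays of set 1 (781.8 and 598.6) lay below those of set 2. Within array set 1, with its 1 control array, the difference was 1.40 ± 0.17, and within array set 2 it was 3.03 ± 0.21. The dimmer probe set, 161382_at, whose mean lies among the lowest 40% of the array, read 50.2, 39.4, 162.0, 124.3 and 130.5 in CKO hearts, against 1.0, 29.4 and 25.7 in control hearts. The groups did not overlap here either, with a log2 difference of 1.74 ± 0.43, or 3.34-fold (limma, adjusted p = 0.0255). This call was lost without any 1 of control replicates 1 and 3 or CKO replicates 3, 4 and 5 (log2 difference 1.29 to 2.00, limma adjusted p up to 0.114). It was also lost with quantile normalization (limma, adjusted p = 0.0792), with median scaling (limma, adjusted p = 0.0569) and with a pseudocount of 1 (limma, adjusted p = 0.0545). In the blocked fit it held without any 1 of the 8 arrays of this age (1.63 to 1.90, limma adjusted p up to 0.000613).

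Tgfb1, the ligand most widely studied in fibrosis, moved less. Probe set 101918_at read 241.3, 227.6, 290.1, 324.2 and 392.3 in CKO hearts, against 172.7, 181.6 and 181.0 in control hearts. Every CKO array was above every control array, while the control arrays lay within 9 units of one another. The log2 difference of 0.65 ± 0.20 did not pass (limma, adjusted p = 0.0738). It passed in the blocked fit, at 0.67 ± 0.14 (limma, adjusted p = 0.00207), and with the lowest 40% of probe sets left out (limma, adjusted p = 0.0498).

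Smad7, which is itself switched on by TGF-beta signalling and targets the type I receptor for degradation, rose. Probe set 92216_at read 366.8, 314.9, 500.0, 564.2 and 324.0 in CKO hearts, against 256.0, 225.0 and 240.6 in control hearts. No arrays overlapped, and the difference was 0.71 ± 0.19, or 1.63-fold (limma, adjusted p = 0.0361). The call was lost without any 1 of control replicates 1, 2 and 3 or CKO replicates 3 and 4 (0.59 to 0.79, limma adjusted p up to 0.161), and with quantile normalization (limma, adjusted p = 0.0737) or median scaling (limma, adjusted p = 0.108). In the blocked fit Smad7 was called at 0.71 ± 0.17 (limma, adjusted p = 0.00496). That fit called 5 of the 8 member probe sets, all higher in CKO hearts, against 22.2% of the array, of which the higher share was 14.5%.

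**Figure D1:**
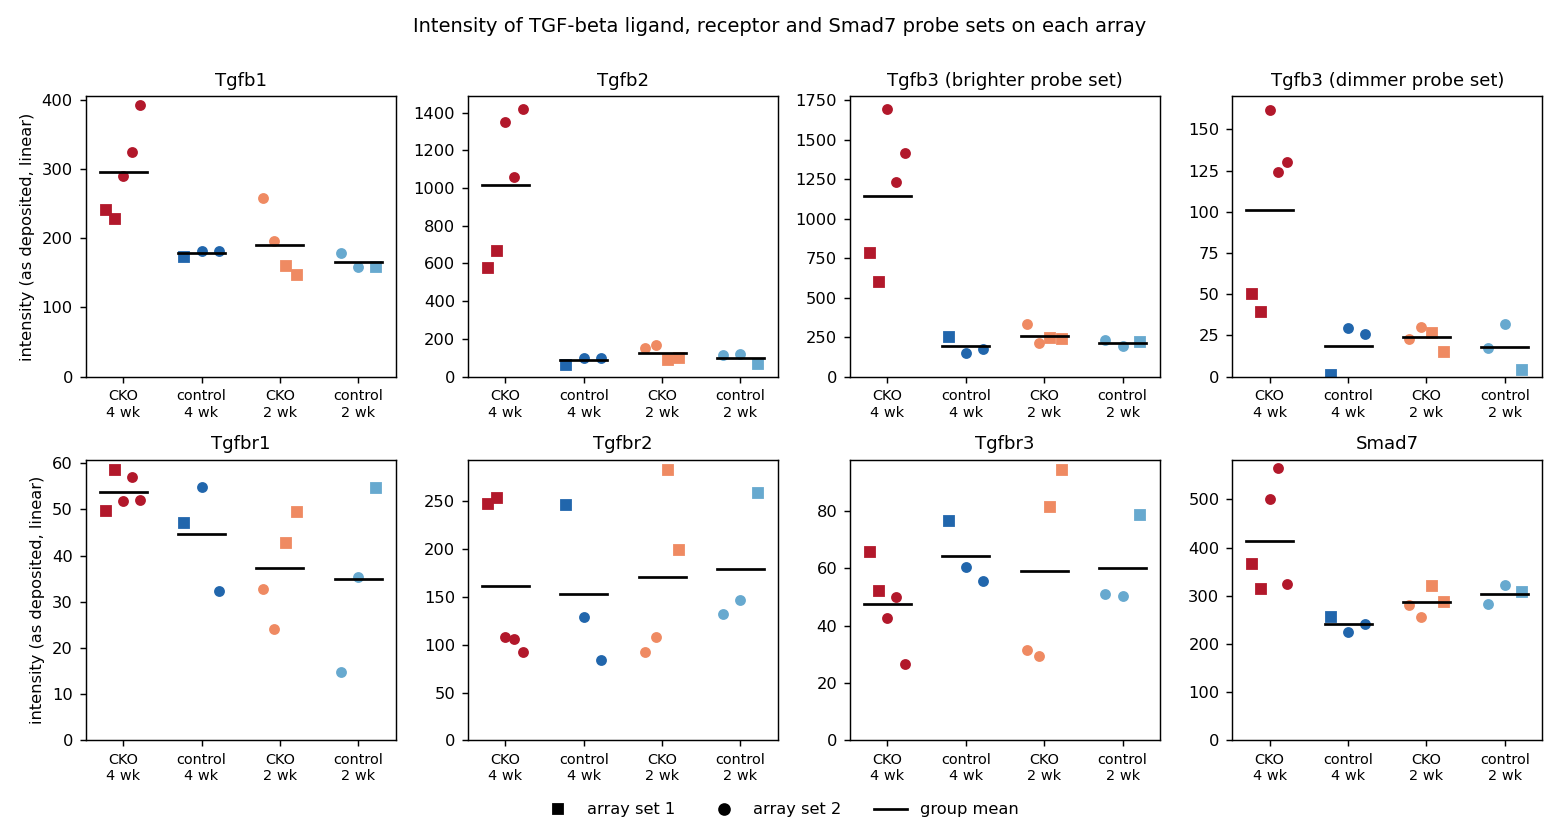
Deposited linear intensity of the 8 member probe sets on each of the 15 arrays, by group, with the group mean as a bar, squares for array set 1 and circles for array set 2. All 5 CKO arrays at 4 weeks lie above the 3 control arrays for Tgfb1, Tgfb2, both Tgfb3 probe sets and Smad7, and Tgfbr2 separates by array set in every group.

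The receptors were measured by 1 probe set each, and none was called. Tgfbr1, the type I receptor kinase, read 49.7, 58.5, 51.9, 57.0 and 52.0 in CKO hearts, against 47.1, 54.8 and 32.4 in control hearts, and the groups overlapped. Its log2 difference was 0.22 ± 0.25, with a 95% interval of −0.31 to 0.74 (limma, adjusted p = 0.825). Tgfbr3, betaglycan, the co-receptor that presents Tgfb2 to the type II receptor, read 65.8, 52.2, 42.7, 50.2 and 26.6 in CKO hearts, against 76.4, 60.5 and 55.7 in control hearts. These also overlapped, and the difference was −0.36 ± 0.31, with a 95% interval of −1.02 to 0.29 (limma, adjusted p = 0.705). Both probe sets lie among the lowest 40% of the array by mean.

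Tgfbr2, the type II receptor that binds the ligand first, followed the array set and not the genotype. It read 247.5, 253.2, 108.3, 106.5 and 92.8 in CKO hearts, against 246.4, 129.6 and 83.8 in control hearts at 4 weeks. In younger hearts, at 2 weeks, Tgfbr2 was at 92.0, 108.3, 283.2 and 199.0 in CKO hearts, against 132.7, 146.9 and 259.0 in control hearts. Over all groups the 6 arrays of set 1 lay between 199.0 and 283.2 and the 9 arrays of set 2 between 83.8 and 146.9, with no overlap. The log2 difference at 4 weeks was 0.07 ± 0.43, with a 95% interval of −0.85 to 0.98 (limma, adjusted p = 0.99). In the blocked fit the difference was 0.00 ± 0.15, with a 95% interval of −0.32 to 0.31 (limma, adjusted p = 0.988).

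**Figure D2:**
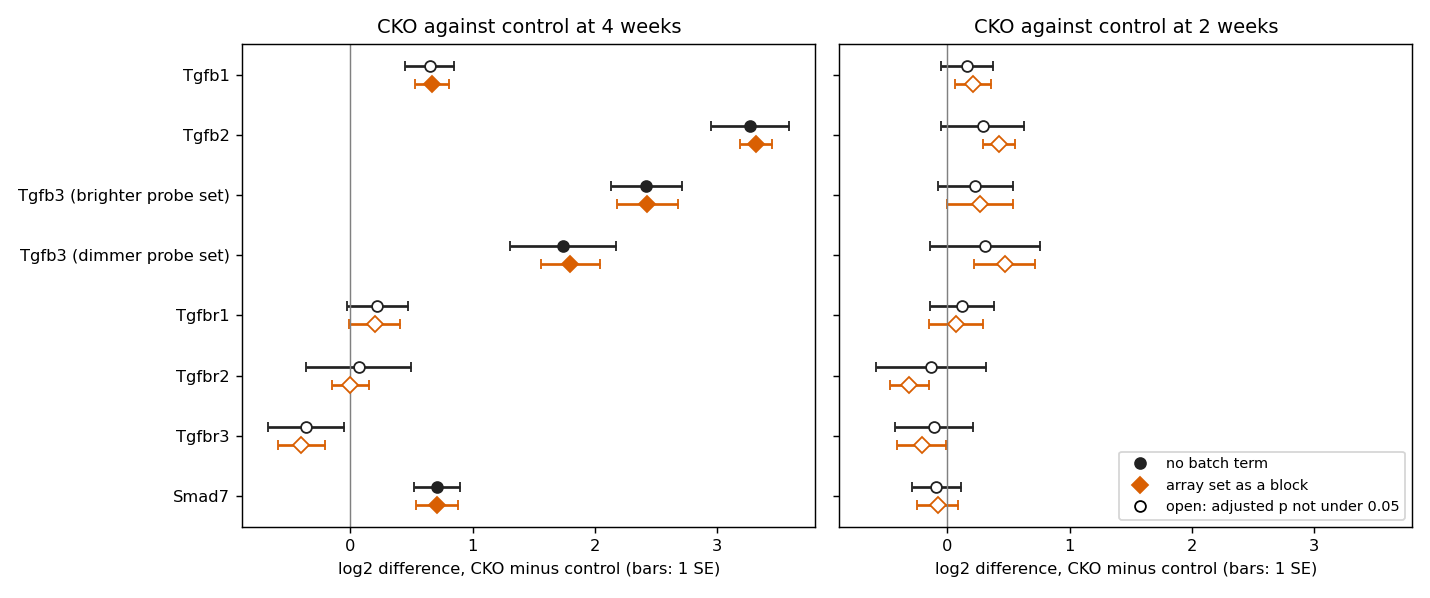
Log2 difference (CKO minus control, bars 1 SE) of the 8 member probe sets at 4 weeks (left) and 2 weeks (right), without a batch term (circles) and in the blocked fit (diamonds); open symbols have an adjusted p not under 0.05. At 4 weeks Tgfb2 lies at 3.27 and the brighter Tgfb3 probe set at 2.42, while at 2 weeks all 8 lie between −0.13 and 0.31 without the batch term.

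At 2 weeks, the same comparison asks whether the differences were already present in younger hearts. No member was called, on an array where 0.00805% of probe sets were (1 of 12422, by limma), and the members' log2 differences ran from −0.13 for Tgfbr2 to 0.31 for the dimmer Tgfb3 probe set. Tgfb2 read 152.5, 168.9, 87.1 and 100.6 in CKO hearts, against 116.6, 119.9 and 65.2 in control hearts. The groups overlapped over all arrays. Within each array set every CKO array was above every control array. That compares only 2 CKO arrays with 1 control array in set 1, and 2 with 2 in set 2. The share of all probe sets with such an order was not counted. The difference was 0.29 ± 0.34 (limma, adjusted p = 1), and in the blocked fit, which called 0.0564% of the array, 0.42 ± 0.13 (limma, unadjusted p = 0.00611, adjusted p = 0.756).

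The other ligands and Smad7 overlapped between genotypes at 2 weeks. Tgfb3 (102751_at) read 336.4, 213.9, 245.4 and 239.9 in CKO hearts, against 233.9, 195.7 and 219.9 in control hearts, a log2 difference of 0.23 ± 0.31. Tgfb1 read 258.6, 196.1, 159.8 and 146.3 in CKO hearts, against 178.4, 158.7 and 158.5 in control hearts, a difference of 0.16 ± 0.21. Smad7 read 280.6, 255.8, 321.1 and 287.2 in CKO hearts, against 283.8, 321.6 and 307.9 in control hearts, a difference of −0.09 ± 0.20. Tgfbr1 read 32.8, 24.1, 42.8 and 49.5 in CKO hearts, against 14.8, 35.3 and 54.7 in control hearts, and Tgfbr3 read 31.5, 29.6, 81.4 and 94.4, against 51.0, 50.4 and 78.6. These differences do not show equal levels: the 95% interval for Tgfb3 ran from −0.43 to 0.88 and for Smad7 from −0.51 to 0.33.

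Whether the genotype difference changed with age was tested as the 4-week difference minus the 2-week difference. Tgfb2 gave 2.98 ± 0.47 (limma, adjusted p = 0.0109) and Tgfb3 (102751_at) 2.19 ± 0.42 (limma, adjusted p = 0.0339), so 2 of 8 probe sets were called, against 0.531% of the array. The Tgfb2 call was lost without control replicate 1 of 2 weeks (limma, adjusted p = 0.0576). The Tgfb3 call was lost in 11 of the 15 fits that left out 1 array each (2.02 to 2.39, limma adjusted p up to 0.141). In the blocked fit both calls held whichever of the 15 arrays was left out. Tgfb2 was then at 2.84 to 2.97 (limma, adjusted p up to 8.56e-06) and Tgfb3 at 1.94 to 2.49 (limma, adjusted p up to 0.0121). With median scaling neither passed (limma, adjusted p = 0.0793 for Tgfb2 and 0.121 for Tgfb3). Smad7 gave 0.80 ± 0.27 (limma, adjusted p = 0.358), Tgfb1 0.49 ± 0.29 (limma, adjusted p = 0.953) and the dimmer Tgfb3 probe set 1.43 ± 0.62 (limma, adjusted p = 0.642). In the blocked fit the dimmer Tgfb3 probe set was called too, at 1.34 ± 0.34 (limma, adjusted p = 0.031), making 3 of 8 against 5.5% of the array. Its call was lost in 7 of the 15 blocked fits that left out 1 array each (1.14 to 1.54, limma adjusted p up to 0.0791).

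The age comparison within each genotype asks which levels moved between 2 and 4 weeks. Within CKO hearts, Tgfb2 rose to 1014 ± 384 at 4 weeks, against 127 ± 39.6 at 2 weeks (SD, n = 5 and 4), a log2 difference of 2.80 ± 0.30 or 6.96-fold (limma, adjusted p = 0.000164). Tgfb3 (102751_at) rose to 1144 ± 451 at 4 weeks, against 259 ± 53.5 at 2 weeks, a difference of 2.00 ± 0.27 or 3.99-fold (limma, adjusted p = 0.000788). These were the 2 of 8 called, against 3.33% of the array (2.06% higher). In the blocked fit Tgfb1 (0.56 ± 0.13, limma, adjusted p = 0.00635) and the dimmer Tgfb3 probe set (1.33 ± 0.22, limma, adjusted p = 0.000497) were called as well, making 4 of 8 against 14.3%. For 4 of the 8 every CKO array at 4 weeks lay above every one at 2 weeks, against 4.27% of the array. These were Tgfb2, both Tgfb3 probe sets and Tgfbr1. Tgfbr1 was higher on all 5 CKO arrays at 4 weeks than on all 4 at 2 weeks, with a difference of 0.41 ± 0.23 that did not pass (limma, adjusted p = 0.551).

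Within control hearts no member was called between ages, where 0.338% of the array was. Tgfb2 averaged 86.2 ± 22.7 at 4 weeks and 101 ± 30.7 at 2 weeks (SD, n = 3 each), and Tgfb3 (102751_at) averaged 191 ± 52.1 at 4 weeks and 216 ± 19.3 at 2 weeks. Smad7 averaged 241 ± 15.5 at 4 weeks and 304 ± 19.1 at 2 weeks. All 3 control arrays at 4 weeks were below all 3 at 2 weeks for Smad7, with a difference of −0.32 ± 0.21 (limma, adjusted p = 1), and 8.7% of all probe sets had control ages that did not overlap.

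**Figure D3:**
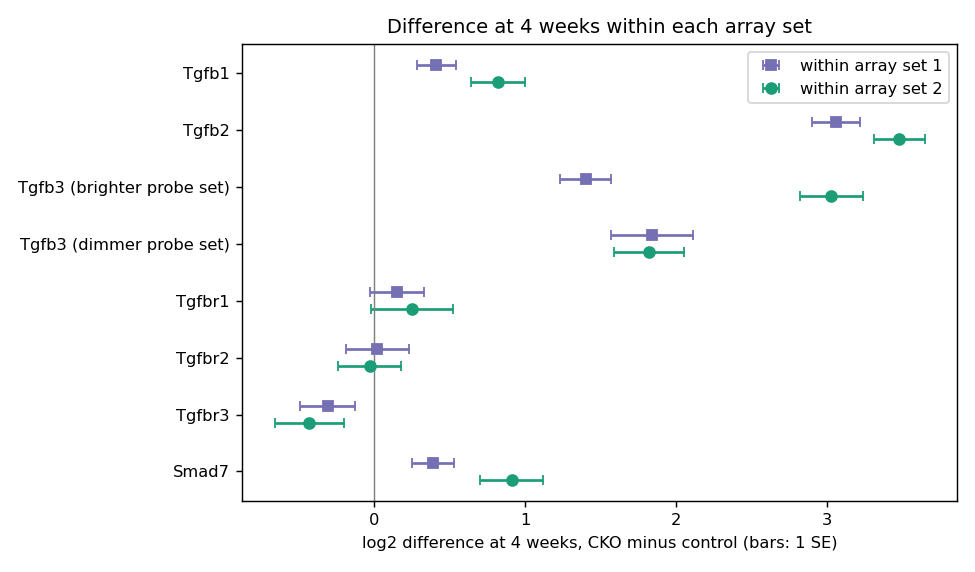
Log2 difference at 4 weeks (CKO minus control, bars 1 SE) of the 8 member probe sets, fitted on the arrays of set 1 alone (squares) and of set 2 alone (circles). Tgfb2 is at 3.06 and 3.48, the brighter Tgfb3 probe set at 1.40 and 3.03, and Smad7 at 0.39 and 0.91. At this age set 1 holds 2 CKO arrays and 1 control array.

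The ligands were also correlated over all 15 arrays. With the mean of each array set subtracted, Pearson's r over the 15 arrays was 0.96 between Tgfb2 and Tgfb3, 0.92 between Tgfb1 and Tgfb3 and 0.90 between Tgfb1 and Tgfb2. Smad7 had r of 0.81 with Tgfb3 and 0.74 with Tgfb2, and Tgfbr3 had r of −0.52 with Tgfb2 and −0.63 with Tgfb1. The points share arrays and groups, and the 5 CKO arrays at 4 weeks hold the 5 highest values of both Tgfb2 and Tgfb3. Group means were not subtracted, so these r include the differences between groups, and a link within groups was not tested.

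**Figure D4:**
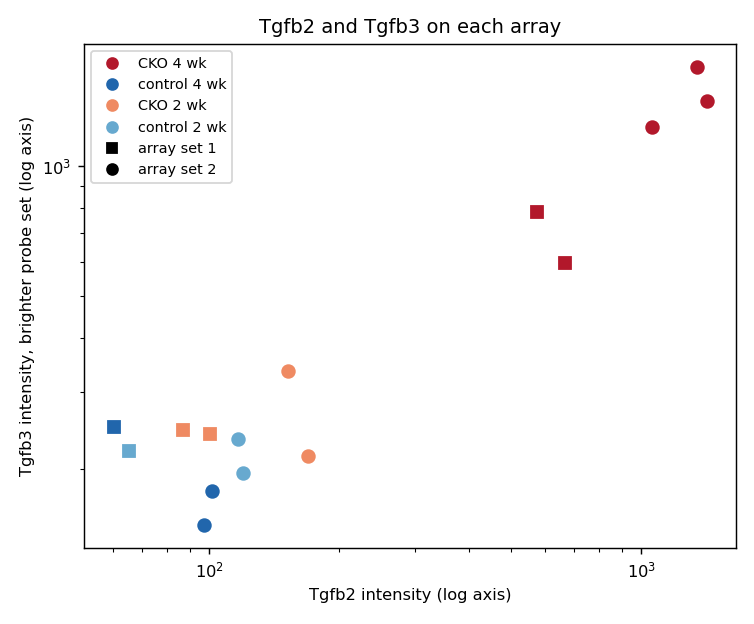
Tgfb2 intensity against the brighter Tgfb3 probe set on each of the 15 arrays, both on log axes, coloured by group with squares for array set 1 and circles for array set 2. The 5 CKO arrays at 4 weeks lie above 500 on both axes, and the other 10 arrays lie below 170 for Tgfb2 and below 340 for Tgfb3.

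By the same measure, the genes most like Tgfb2 were Adcy7 (r = 0.99), an adenylyl cyclase, F2r (0.99), the thrombin receptor, Uck2 (0.98), a uridine-cytidine kinase, Serpinb6a (0.98), a serine protease inhibitor, and Atp6v1h (0.98), a subunit of the vacuolar proton pump. Those most like Tgfb3 were Itgb5 (0.98), an integrin beta chain, Adam9 (0.97), a membrane metalloprotease, Acot9 (0.97), an acyl-CoA thioesterase, Itgav (0.97), an integrin alpha chain, and Adcy7 (0.97). Plp2 led for Tgfb1 (0.97), followed by Hdac6 (0.96), Aup1, Ctsa and Rragc (0.95 each). Gpm6b led for Smad7 (0.97), followed by Eps8, Pdgfra and Azi2 (0.93 each) and Ostf1 (0.92). The highest r was 0.89 for Tgfbr1 (Ctrl) and Tgfbr3 (Usp29) and 0.87 for Tgfbr2 (Olfr155).

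Genes that store or release the ligands rose in part. Of 22 listed genes, 17 had a probe set, and 6 rose and none fell at 4 weeks, against 3.86% and 2.42% of the array. The median log2 difference was 0.29, against 0.08 over all genes. Bgn (biglycan) rose by 1.70 ± 0.17 and Fmod (fibromodulin) by 2.98 ± 0.42, both small proteoglycans that bind TGF-beta, and Dcn (decorin), another of that kind, rose by 0.51 ± 0.08. Itgav, the alpha chain of integrins that release latent TGF-beta, rose by 1.22 ± 0.14. Bgn averaged 4796 ± 89.8 in CKO and 1473 ± 131 in control hearts at 4 weeks. Bgn, Fmod and Itgav were the 3 of the list that also passed the test of the difference between ages, at 1.41 ± 0.25, 3.32 ± 0.61 and 1.08 ± 0.20 (limma, adjusted p = 0.0248, 0.028 and 0.028). With median scaling none of the 3 passed (limma, adjusted p = 0.141 for Bgn and 0.0793 for Fmod and Itgav). The blocked fit called 7 of the list in that test, against 5.5% of the array, and quantile normalization 5, all positive. With quantile normalization 35 of all 12422 probe sets were called higher and 48 lower in that test.

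Of 20 measured Smads and co-regulators (30 listed), 4 rose and none fell, against 3.86% and 2.42% of the array, with a median of 0.24. They were Fkbp1a (0.52 ± 0.11), which binds the type I receptor, the Smad co-repressor Tgif1 (0.85 ± 0.19), the endothelial co-receptor Eng (0.54 ± 0.14) and the inhibitory Smad6 (0.60 ± 0.17). Of the 20, 8 rose and 1 fell in the blocked fit, which called 22.2% of the array. With quantile normalization 1 rose and 1 fell, and with median scaling 0 rose and 1 fell. The signalling Smads were not called: Smad2 was at 0.85 ± 0.43 (limma, adjusted p = 0.357), Smad3 at 0.23 ± 0.26 (0.819 by the same test) and Smad4 at 0.07 ± 0.16 (0.94).

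Of 29 measured genes known to be induced by TGF-beta (32 listed), 16 rose and none fell at 4 weeks, with a median of 0.97. Of all probe sets 3.86% were called higher and 2.42% lower. Cdkn1a, the cell cycle inhibitor p21, rose by 3.02 ± 0.30, elastin (Eln) by 2.83 ± 0.37, collagen chain Col1a1 by 1.68 ± 0.22 and the collagen cross-linking enzyme Lox by 3.73 ± 0.54. Eln averaged 2658 ± 398 in CKO and 402 ± 257 in control hearts at 4 weeks, and 1815 ± 804 in CKO and 1921 ± 605 in control hearts at 2 weeks. Within control hearts Eln fell with age, by 2.33 ± 0.41 on the log2 scale (limma, adjusted p = 0.0265), while within CKO hearts its difference was 0.65 ± 0.34 (limma, adjusted p = 0.496). Col1a1 averaged 4149 ± 323 in CKO and 1284 ± 101 in control hearts at 4 weeks, and 3324 ± 1161 in CKO and 3090 ± 763 in control hearts at 2 weeks. Within control hearts the Col1a1 difference between ages was −1.23 ± 0.25 and did not pass (limma, adjusted p = 0.0541), and in the blocked fit it was −1.23 ± 0.16 (limma, adjusted p = 0.000455). Within control hearts Lox was at −1.93 ± 0.60 and Col3a1 at −1.09 ± 0.26 between ages, neither called without the block and both called in the blocked fit. Within CKO hearts they were at 1.92 ± 0.49 and 0.15 ± 0.21. Cdkn1a was at −0.18 ± 0.34 within control and 1.55 ± 0.28 within CKO hearts. How much of each 4-week difference came from a fall in control hearts was not tested. The genes given by age were singled out after their values were seen.

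Of 35 measured BMP, activin and GDF ligands, receptors and antagonists (39 listed), 2 rose and 1 fell at 4 weeks, with a median of 0.11, on an array where 6.27% of probe sets were called. The blocked fit, which called 22.2% of the array, called 9 higher and 2 lower, and with quantile normalization 1 rose and 1 fell, Gdf3 being lost. Bmp7 fell by 1.17 ± 0.13 on the log2 scale, averaging 808 ± 49 in CKO and 1839 ± 138 in control hearts at 4 weeks. It also passed the test of the difference between ages (−0.99 ± 0.19, limma, adjusted p = 0.0339), but not with median scaling (limma, adjusted p = 0.18). Fstl1, a follistatin-like secreted protein, rose by 1.65 ± 0.24 and Gdf3 by 0.82 ± 0.21, and Bmp4 was at 0.51 ± 0.14 (limma, adjusted p = 0.0516). At 2 weeks no gene of these 4 lists was called, on an array where 1 of 12422 probe sets was. That does not show equal levels. Cdkn1a, which had the largest 2-week difference of these lists, was at 1.29 ± 0.31 (limma, unadjusted p = 0.00104). It averaged 740 ± 178 in CKO and 288 ± 34.6 in control hearts at 2 weeks.

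**Figure D5:**
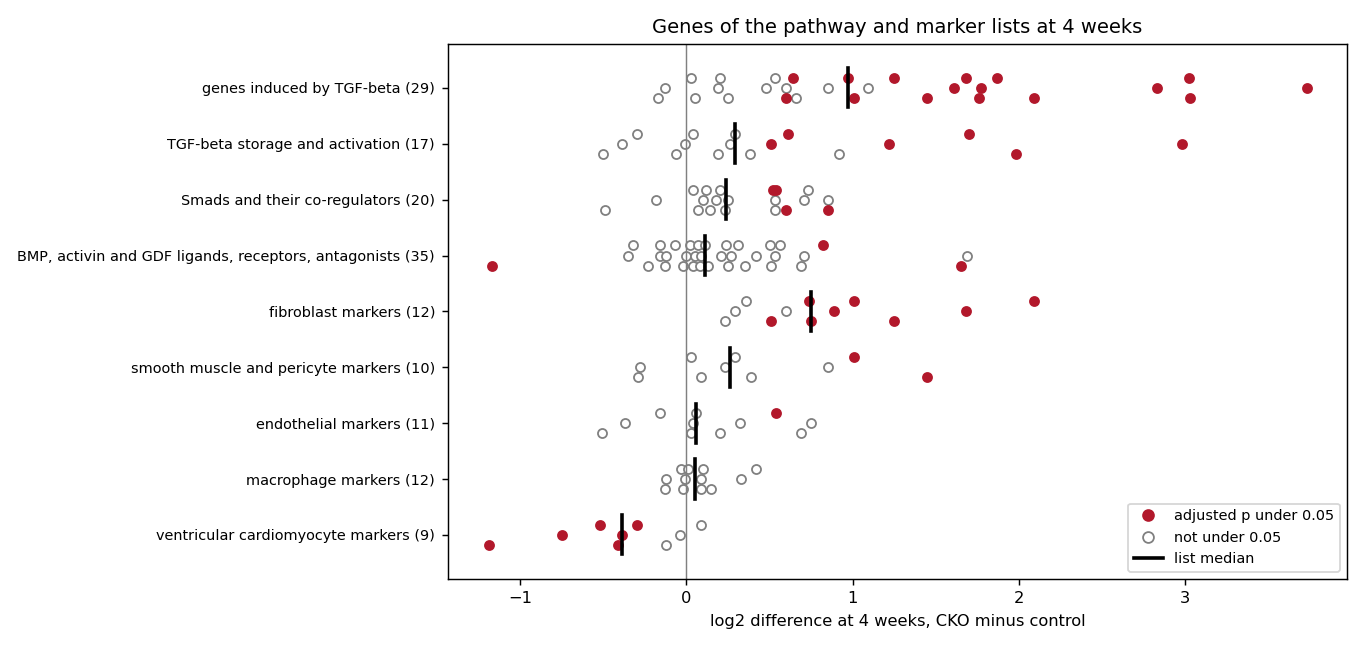
Log2 difference at 4 weeks (CKO minus control) of each measured gene in the pathway lists and in 5 marker lists, with the list median as a bar and filled points for an adjusted p under 0.05. Genes induced by TGF-beta have a median of 0.97 and fibroblast markers of 0.75, macrophage markers of 0.05 and ventricular cardiomyocyte markers of −0.39.

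Markers of some cell types also differed at 4 weeks, where 3.86% of all probe sets were called higher and 2.42% lower. Of 12 fibroblast markers 8 rose and none fell, and their summed intensity was 26221 to 31246 in CKO hearts, against 15183 to 16470 in control hearts. At 2 weeks, where the ligands were not called, the sum was 18764 to 27106 in CKO hearts, against 17286 to 22068 in control hearts. Of 9 ventricular cardiomyocyte markers 6 fell and none rose, with sums of 59887 to 65136 in CKO hearts, against 73944 to 79272 in control hearts. Smooth muscle and pericyte markers gave 2 of 10 higher, endothelial markers 1 of 11 higher, and atrial markers 2 higher and 1 lower of 8. The atrial sums were 9099 to 12380 in CKO hearts, against 4810 to 5319 in control hearts. Most of that gap is Nppa, the atrial natriuretic peptide, at 6261 ± 920 in CKO and 1542 ± 167 in control hearts, and the median of the atrial list was 0.10, against 0.08 over all genes. None of 12 macrophage, 9 lymphocyte, 4 platelet and megakaryocyte or 4 erythroid markers was called. Only 1 lymphocyte marker, on a control array, was at the floor of the files, which is 0.95. Some of these markers were dim all the same, such as Ptprc at 30.4 ± 11.9 in CKO and 32.5 ± 3.83 in control hearts at 4 weeks. Others were brighter, such as C1qc at 876 ± 350 and 814 ± 318. The lack of calls does not show equal numbers of these cells. Of these markers, 3 for fibroblasts and 3 for smooth muscle also stand in the list of induced genes, and the part of cell makeup in the ligand differences was not tested. Of the arrays, 4 of 5 CKO and 1 of 3 control arrays at 4 weeks were inferred female. With inferred sex and array set as blocks 5 of the 8 member probe sets were called at 4 weeks. Of all 12422 probe sets, that fit called 1500 higher and 837 lower.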

How the data were processed

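Total RNA of mouse hearts was labelled with biotin and hybridised to one-colour arrays, per the labels' protocols. The authors deposited linear intensities per probe set, with a floor of 0.95 on each array. Neither the labels nor the file headers state their software, background correction or scaling. Groups came from the sample titles. Members and gene lists were chosen with earlier results of these data known. Members come from the platform annotation, with a single symbol for 10833 probe sets, more than 1 for 396 and no symbol for 1193.

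Intensities were kept as deposited and used as log2(intensity + 16), which understates fold changes of dim probe sets. All 12422 probe sets entered limma 3.58.1 (R 4.3.3; lmFit and eBayes with an intensity trend), with 1 coefficient per group over the 15 arrays, two-sided tests and Benjamini-Hochberg adjustment. No filter was applied, so all 8 members were tested. The fit was tested on simulated data. In gene lists a gene is its probe set with the highest mean, and up to 4 genes per list were named by smallest p at 4 weeks, apart from those named for their role or age course, chosen after their values were seen. The array count limits the precision.

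Alternatives were quantile normalization, median scaling, pseudocounts of 1 and 64, leaving out the lowest 40% of probe sets, the array set, inferred sex or replicate number as a block, fits within each array set, array weights, and leaving out each array. Same-numbered CKO and control arrays deviated together at 2 weeks (r of 0.66, 0.59 and 0.85) and at 4 weeks for replicates 1 and 3 (0.79 and 0.47) but not 2 (−0.52). The arrays of each of these pairs share an array set, except those of replicate 2 at 4 weeks.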

Additional observations from a re-analysis of the deposited data

Results flagged for a closer look

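Tgfb2 and Tgfb3 stood out because their genotype difference at 4 weeks differed from that at 2 weeks in a test of the difference itself. The 4-week difference minus the 2-week difference was 2.98 for Tgfb2 and 2.19 for Tgfb3 (probe set 102751_at) on the log2 scale. Neither passed with median scaling (limma, adjusted p = 0.0793 for Tgfb2 and 0.121 for Tgfb3). The Tgfb2 call was lost without control replicate 1 of 2 weeks (limma, adjusted p = 0.0576). The Tgfb3 call was lost in 11 of the 15 fits that left out 1 array (limma, adjusted p up to 0.141). In the blocked fit neither call was lost when 1 array was left out (limma, adjusted p up to 8.56e-06 for Tgfb2 and 0.0121 for Tgfb3). In the 16 member groups of 4 or 5 arrays, 0 arrays stood far from the rest of their group.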

How the results depend on the processing

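The higher Tgfb2 and Tgfb3 (102751_at) of CKO hearts at 4 weeks kept their call in every alternative run, Tgfb2 between 3.07 and 3.45 and Tgfb3 between 2.25 and 2.62 when 1 array was left out. The number of members called at 4 weeks was 4, and 2 with quantile normalization or median scaling. At 2 weeks it was 0, and 2 with array weights. For the difference between ages it was 2, and 0 with median scaling, 1 within array set 1 and 6 with array weights. Within CKO hearts it was 2, and 4 in the blocked fit (a term for the array set), with or without quantile normalization, 5 with array set and inferred sex, and 7 with array weights. Within control hearts it was 0, and 1 with array weights. The cause of these changes was not tested. Array weights ran from 0.234 to 9.06, and their estimation stopped before convergence. Of 12422 probe sets, the fit with array weights called 3317 higher and 1733 lower at 2 weeks. It called 1680 higher and 1439 lower for the difference between ages. Within CKO hearts it called 2326 and 3508, and within control hearts 589 and 877. Within CKO hearts the fit with array set and inferred sex called 865 higher and 655 lower. Leaving out 1 array gave 2 to 4 calls at 4 weeks, 0 to 2 for the difference between ages and 2 to 3 within CKO hearts. With the replicate number as a block, 4 members were called at 4 weeks (Tgfb2 at 3.03), 0 at 2 weeks (Tgfb2 at 0.38), 2 for the difference between ages, 2 within CKO and 0 within control hearts, and no member's call changed. Over all probe sets at 4 weeks, 479 were higher and 300 lower, against 365 and 410 with quantile normalization, 287 and 300 with median scaling, 1804 and 956 in the blocked fit, and 1403 and 1300 in that fit after quantile normalization.

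Sign changes touched only values that were not called without the alternative. At 4 weeks Tgfbr2 was −0.01 with quantile normalization and with median scaling, 0.00 in the blocked fit, −0.07 with that block and quantile normalization, −0.05 with set and sex and with array weights, and −0.03 within array set 2. At 2 weeks array weights gave −0.11 for Tgfb1, −0.15 for Tgfb2, −0.10 for Tgfb3 (161382_at), 0.47 for Tgfbr2 and 0.54 for Tgfbr3, and array set 1 alone gave −0.05 for Tgfb1, −0.19 for Tgfbr1 and 0.13 for Tgfbr3. For the difference between ages array weights gave −0.55 for Tgfbr1 and −0.52 for Tgfbr2, and Tgfbr3 was 0.09 within array set 2 and 0.12 with the replicate block. Within CKO hearts Tgfbr2 was 0.04 in the blocked fit, 0.01 with that block and quantile normalization, 0.07 within set 1, 0.03 within set 2 and 0.08 with the replicate block, and Tgfbr3 was 0.24 within set 2. Within control hearts Tgfb3 (161382_at) was 0.05 with quantile normalization with or without the block, 0.03 with median scaling, 0.01 with a pseudocount of 64, 0.13 within set 2 and 0.23 with array weights, and within set 1 Tgfb3 (102751_at) was 0.17, Tgfbr1 −0.16 and Tgfbr3 −0.03.

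Leaving out 1 array also turned small values. The range at 4 weeks was −0.26 to 0.44 for Tgfbr2. At 2 weeks it was −0.02 to 0.60 for Tgfb3 (161382_at), −0.20 to 0.40 for Tgfbr1, −0.40 to 0.14 for Tgfbr2 and −0.33 to 0.09 for Tgfbr3. For the difference between ages it was −0.18 to 0.42 for Tgfbr1 and −0.12 to 0.58 for Tgfbr2. Within CKO hearts it was −0.29 to 0.20 for Tgfbr2 and −0.36 to 0.06 for Tgfbr3. Within control hearts it was −0.42 to 0.02 for Tgfb2, −0.33 to 0.45 for Tgfb3 (161382_at), 0.00 to 0.59 for Tgfbr1, −0.64 to 0.05 for Tgfbr2 and −0.02 to 0.26 for Tgfbr3. Tgfb3 (161382_at), Tgfbr1 and Tgfbr3 lie among the dimmest 40% of probe sets by mean.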
